A study of Drosophila melanogaster with 6 samples.

Results

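The elav family of *Drosophila* is a set of 3 genes for neuronal RNA-binding proteins, *elav*, *fne* and *Rbp9*. They were taken by exact gene symbol from a table of exon counts for 17494 genes, and all 3 members were found and passed the filter on low counts. Bulk RNA-seq was run on ventral nerve cords (VNCs) dissected from adult flies, with 2 libraries for each of 3 conditions. In *poxn > prosRNAi, SypRNAi* tumors, *prospero* (*pros*) and *Syncrip* (*Syp*) were knocked down together in the neuroblasts (NBs, the neural stem cells) that express *poxn*. In *poxn > prosRNAi* tumors, only *pros* was knocked down, which turns the same NBs into a persistent tumor. The third condition was wild-type (WT) VNCs. The GAL4 driver also carried UAS-dicer2 and a nuclear mCherry in the tumor flies, and the knockdown acts only in the progeny of a few NBs per VNC, so that each tumor library mixes tumor cells with the neurons, glia and other tissue of the VNC. The labels give an age of 6 days for every condition, whereas the study's methods give an older age for the tumors. For the tumors, VNCs of females and males from several crosses were pooled, and the methods name both samples of a condition technical replicates. The methods do not describe the WT samples, so their sex, pooling and kind of replicate are not known. The p-values measure the spread between the samples of a condition, which may leave out differences between animals.

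ELAV-like proteins bind U-rich RNA through RNA recognition motifs and act on pre-mRNA and mRNA of neurons, where they control alternative splicing and the choice of the polyadenylation site, and through it the length of the 3′ UTR. ELAV is nuclear and present in all neurons from shortly after their birth, which makes it the standard marker of neurons in the fly. FNE (found in neurons) also appears in postmitotic neurons and can take over part of the nuclear work of ELAV. RBP9 comes on late, in mature neurons, and also acts in the female germline.

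Library totals ranged from 86098417 to 128107088 counts, of which genes of ribosomal RNA took 15.6% to 23.8%. Levels are given as CPM, the counts of a gene per fixed number of counts of its library, after TMM scaling over the 6 libraries. The targeted genes were lower in the directions that the labels give. For *pros* against WT, these bulk values cannot tell a knockdown in tumor cells apart from a change in the mix of tissue. *pros* was at 1045 and 1254 CPM in *poxn > prosRNAi, SypRNAi* tumors and at 736 and 808 CPM in *poxn > prosRNAi* tumors, against 2505 and 2335 CPM in WT. *Syp* was at 422 and 459 CPM in *poxn > prosRNAi, SypRNAi* tumors, against 2066 and 1762 CPM in *poxn > prosRNAi* tumors and 699 and 689 CPM in WT. The summed level of 8 NB markers was 2269 and 2064 CPM in *poxn > prosRNAi, SypRNAi* tumors and 2794 and 2630 CPM in *poxn > prosRNAi* tumors, against 30.4 and 25.8 CPM in WT VNCs, and each of 15 neuron markers was detected in all 6 libraries.

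*elav* (FBgn0260400) lies on the minus strand of chromosome X, from 509235 to 523226 in Release 6 of the genome. *fne* (FBgn0086675) lies on the plus strand of the same chromosome, from 12917477 to 12950417. *Rbp9* (FBgn0010263) is on the plus strand of chromosome 2L, from 2954762 to 2968434. The counted exons span 10715 bases in *elav*, in 4 blocks, 9516 bases in *fne*, in 9 blocks, and 8054 bases in *Rbp9*, in 12 blocks. Most of the counted sequence is untranslated. The 3′ UTR makes up 79.9% of the exon length of *elav*, 51.8% of that of *fne* and 53.6% of that of *Rbp9*, and the coding part 13.5%, 11.2% and 25.7% in the same order. The table does not divide the counts of a gene over its exons, so a change of 3′ UTR length could not be told apart from a change in the amount of mRNA.

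**Figure D1:**
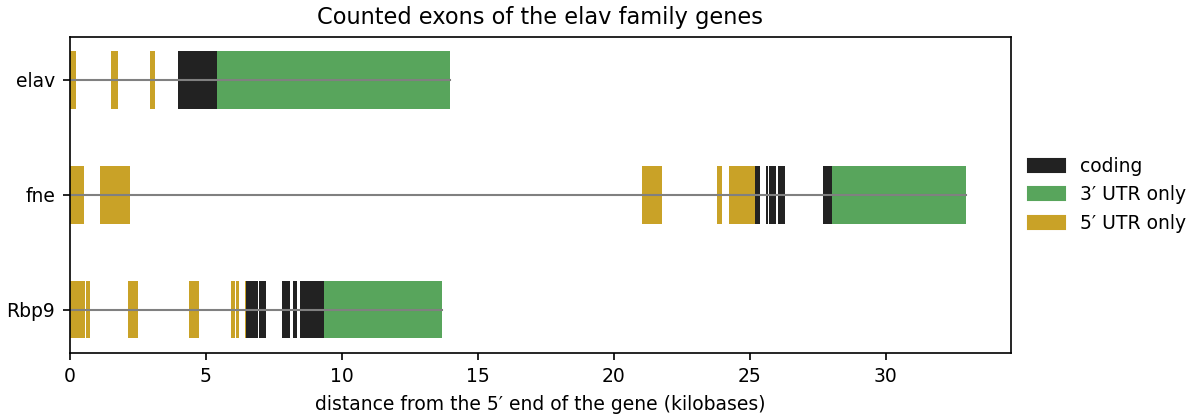
Counted exons of *elav*, *fne* and *Rbp9* along each gene, in kilobases from its 5′ end, with coding parts in black, parts that are only 3′ UTR in green, parts that are only 5′ UTR in yellow and introns as a grey line. The 3′ UTR is the longest block in each gene, with 8557 bases in *elav*, 4927 in *fne* and 4316 in *Rbp9*.

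The annotation of the table and the current one differ in 1 exon of the family. A coding exon of *fne* of 45 bases, from 12944293 to 12944337 on chromosome X, is not among the counted exons. It is part of 2 of the 11 *fne* transcripts in the current annotation. Reads that reach from it into a counted exon are in the count of *fne* and cannot be told apart there. Exons of *fne* overlap those of no other gene. Those of *elav* share 673 bases with *arg* (arginase), which had 261 to 1378 counts, or 2.03% to 3.54% of the counts of *elav* in the same library. *Rbp9* shares 142 bases, 1.76% of its exon length, with *Ts* (thymidylate synthase) on the other strand. *Ts* was at 63.9 and 55.2 CPM in *poxn > prosRNAi, SypRNAi* tumors and at 60.1 and 64.0 CPM in *poxn > prosRNAi* tumors, against 14.8 and 13.6 CPM in WT. As the reads were counted without regard to strand and for each gene they overlap, reads of *Ts* in the shared bases also count for *Rbp9*. If the reads of *Ts* were spread evenly over its exons, they would make up 6.71% to 8.68% of the counts of *Rbp9* in the 4 tumor libraries and 0.276% to 0.295% in WT.

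The level of *elav*, the gene of the pan-neuronal family founder, was 213 and 217 CPM in *poxn > prosRNAi, SypRNAi* tumors and 91.4 and 96.3 CPM in *poxn > prosRNAi* tumors, against 337 and 342 CPM in WT VNCs. The 3 conditions did not overlap, and the *poxn > prosRNAi, SypRNAi* tumors stood between the other two. *fne* was at 135 and 140 CPM in *poxn > prosRNAi, SypRNAi* tumors and at 81.6 and 108 CPM in *poxn > prosRNAi* tumors, against 509 and 489 CPM in WT. Its libraries did not overlap between conditions either, but the 2 *poxn > prosRNAi* libraries were far apart. *Rbp9*, the member of mature neurons, was at 79.1 and 86.8 CPM in *poxn > prosRNAi, SypRNAi* tumors and at 73.1 and 92.1 CPM in *poxn > prosRNAi* tumors, against 527 and 520 CPM in WT. Here the tumors overlapped and both lay far below WT. The share of all genes without overlap between conditions was not counted. Against WT, 11700 of 14162 genes tested were called in *poxn > prosRNAi* tumors and 10935 of 14289 in *poxn > prosRNAi, SypRNAi* tumors. Between the tumors, 3190 of 13703 were called. A lack of overlap, be it with WT or between the tumors, is therefore not read as a trait of these genes. The counts behind these values ranged from 6782 to 68714, so that counting error is small beside the differences from WT. It is not small beside every difference within a condition. For *elav* in WT (337 and 342 CPM) it was 0.507% and 0.471%.

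**Figure D2:**
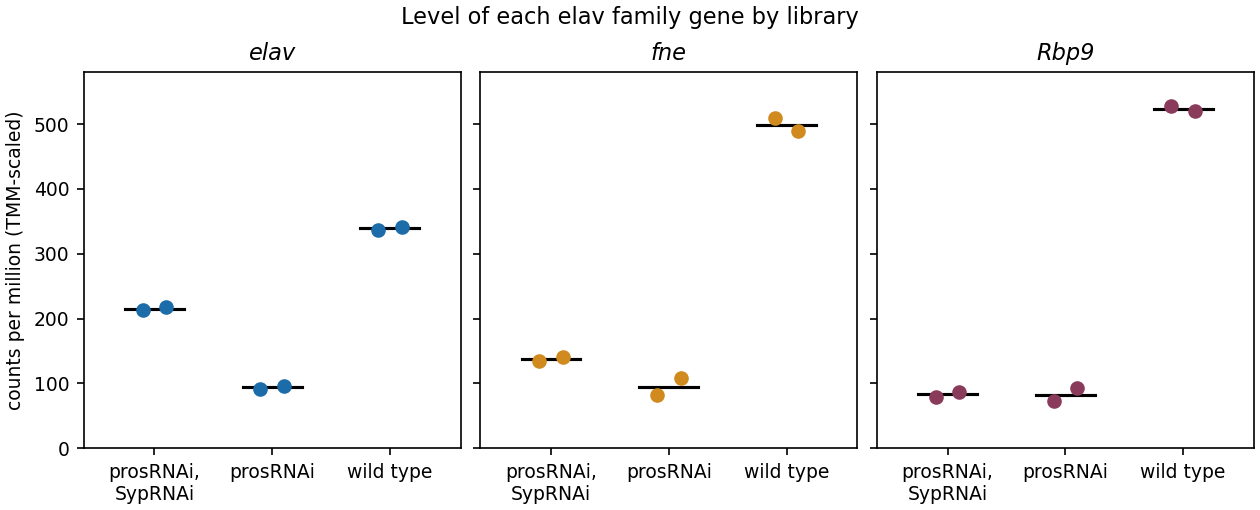
Level of *elav*, *fne* and *Rbp9* in CPM (TMM-scaled), with a point per library and a line at the mean of the 2 libraries, for *poxn > prosRNAi, SypRNAi* tumors (prosRNAi, SypRNAi), *poxn > prosRNAi* tumors (prosRNAi) and WT VNCs. *elav* has 3 separate levels, with 213 and 217 CPM in the middle, whereas *Rbp9* lies between 73.1 and 92.1 CPM in all 4 tumor libraries.

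Divided by exon length, the levels of the members can be set against each other. In WT VNCs, *Rbp9* was highest, at 65.0 ± 0.645 CPM per kilobase (SD, n = 2), followed by *fne* at 52.4 ± 1.51 (SD, n = 2) and *elav* at 31.7 ± 0.302 (SD, n = 2), and the libraries of these members did not overlap. In *poxn > prosRNAi, SypRNAi* tumors the order was the opposite. *elav* was at 20.1 ± 0.301 CPM per kilobase (SD, n = 2), *fne* at 14.5 ± 0.375 and *Rbp9* at 10.3 ± 0.675, again without overlap. In *poxn > prosRNAi* tumors the members were closer together, with *elav* at 8.53 and 8.99 CPM per kilobase, *fne* at 8.57 and 11.4, and *Rbp9* at 9.07 and 11.4. Within each of these libraries *elav* had the lowest value and *Rbp9* the highest, while across the libraries the members overlapped. However, *elav* and *fne* in library 1 (8.53 and 8.57) and *fne* and *Rbp9* in library 2 (11.40 and 11.44) lay within counting error. Reads of *Ts*, if spread evenly, would make up 8.68% and 7.33% of the *Rbp9* counts in these libraries. Whether the order of WT was kept therefore cannot be told. The summed level of the 3 genes was 43.9 and 45.8 CPM per kilobase in *poxn > prosRNAi, SypRNAi* tumors and 26.2 and 31.8 in *poxn > prosRNAi* tumors, against 150.4 and 147.8 in WT. Among 17210 genes ranked by level per kilobase, *elav* stood at percentile 82.0 in *poxn > prosRNAi, SypRNAi* tumors and 63.3 in *poxn > prosRNAi* tumors, against 91.6 in WT. *Rbp9* stood at percentile 66.7 in *poxn > prosRNAi, SypRNAi* tumors and 66.4 in *poxn > prosRNAi* tumors, against 96.2 in WT.

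All 3 members were lower in both kinds of tumor than in WT VNCs, *elav* least and *Rbp9* most. The question of these comparisons is how VNCs that hold a tumor differ from VNCs without one. CPM is a share of the library. In a bulk sample, fewer neurons, less RNA per neuron and RNA added by tumor cells therefore cannot be told apart. In *poxn > prosRNAi* tumors, *elav* was 3.60-fold lower than in WT (log2 fold change -1.85, SE 0.0653, 95% CI -2.01 to -1.69, adjusted p = 7.89e-06 by edgeR's quasi-likelihood test), *fne* 5.23-fold lower (-2.39, SE 0.147, adjusted p = 3.66e-05 by edgeR) and *Rbp9* 6.32-fold lower (-2.66, SE 0.126, adjusted p = 1.50e-05 by edgeR). So 3 of 3 members fell, where 40.7% of the 14162 genes tested were called lower and 41.9% higher at an adjusted p under 0.05. The share of all genes called is so large that the count of members is read by the size of the falls. The fall of *Rbp9* stood at percentile 5.75 of all log2 fold changes, that of *fne* at 11.5 and that of *elav* at 21.2, and the median over all genes was 0.0084.

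Against the same WT libraries, the *poxn > prosRNAi, SypRNAi* tumors showed a wider spread between the members. *elav* was 1.58-fold lower (log2 fold change -0.66, SE 0.0673, 95% CI -0.84 to -0.48, adjusted p = 0.000919 by edgeR), *fne* 3.64-fold lower (-1.86, SE 0.0772, adjusted p = 8.56e-05 by edgeR) and *Rbp9* 6.33-fold lower (-2.66, SE 0.0912, adjusted p = 6.55e-05 by edgeR). Again 3 of 3 members fell, where 36.7% of the 14289 genes tested were called lower and 39.8% higher. The percentiles of these log2 fold changes were 34.6 for *elav*, 16.1 for *fne* and 5.37 for *Rbp9*. All of these falls kept their direction and stayed below an adjusted p of 0.05 under each of 12 alternatives per gene.

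Between the tumors, which differ by the knockdown of *Syp*, the members parted. *elav* was 2.30-fold higher in *poxn > prosRNAi, SypRNAi* than in *poxn > prosRNAi* tumors, with a log2 fold change of 1.20 (SE 0.0658, 95% CI 1.03 to 1.37, adjusted p = 0.00398 by edgeR's quasi-likelihood test). Of 13703 genes tested it had rank 38 by p and stood at percentile 94.6 of the log2 fold changes. *fne* had a log2 fold change of 0.54 (SE 0.146, 95% CI 0.16 to 0.91) and, although its libraries did not overlap, an adjusted p of 0.0582 by edgeR, just outside the threshold. It was called in 6 of its 12 alternatives. The value for *Rbp9* was 0.01 (SE 0.130, 95% CI -0.33 to 0.34, adjusted p = 0.965 by edgeR), so that a change up to these bounds in either direction cannot be told from none. Thus 1 of 3 members was called higher and 0 of 3 lower, where 10.9% of all genes tested were called higher and 12.4% lower. Without library 2 of the *poxn > prosRNAi* tumors, the value for *elav* was 1.24 with an adjusted p of 0.0501 by edgeR, and the number of genes called fell to 6, against 3190 with all 4 libraries. It was 235 without library 1 of the same tumors and 2108 without library 2 of the *poxn > prosRNAi, SypRNAi* tumors.

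**Figure D3:**
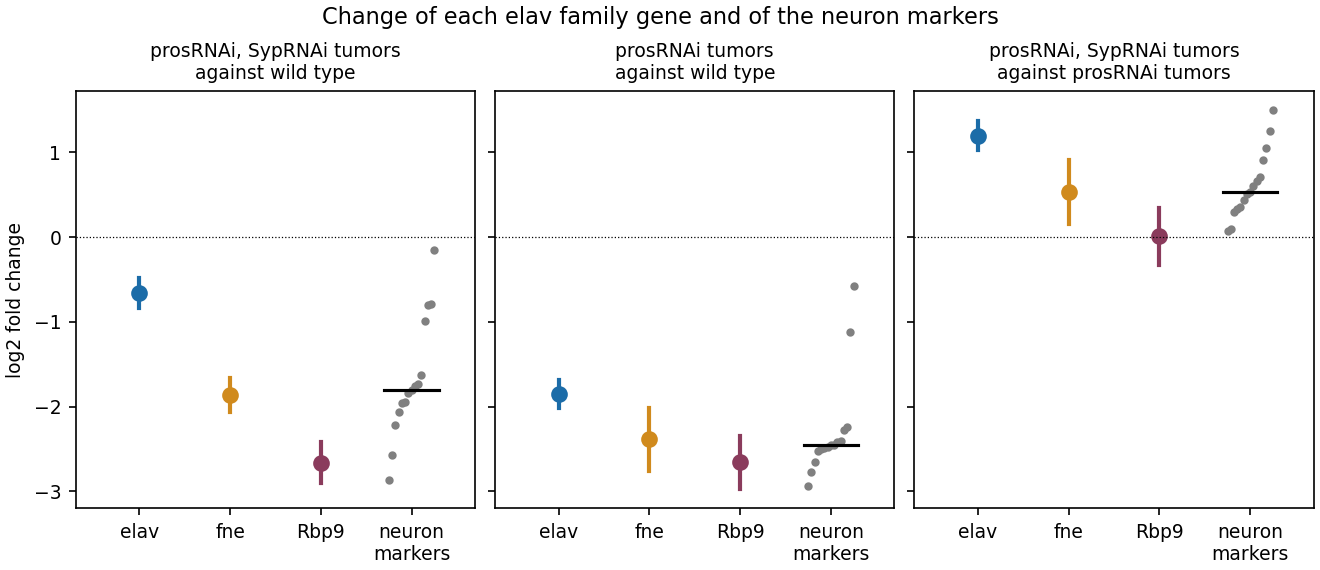
Log2 fold change of *elav*, *fne* and *Rbp9* in the 3 comparisons, with the fitted value as a point and its 95% confidence interval as a line, next to the 15 neuron markers as grey points and their median as a black line. *elav* lies above the marker median in every panel and *Rbp9* below it, and between the tumors *elav* is at 1.20, *fne* at 0.54 and *Rbp9* at 0.01.

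As a result of these unequal differences, the make-up of the family was not the same in the 3 conditions. *elav* held 44.8% ± 0.678 (SD, n = 2) of the summed CPM per kilobase in *poxn > prosRNAi, SypRNAi* tumors and 30.4% ± 3.07 in *poxn > prosRNAi* tumors, against 21.2% ± 0.467 in WT. *Rbp9* held 23.0% ± 0.813 (SD, n = 2) in *poxn > prosRNAi, SypRNAi* tumors and 35.3% ± 0.906 in *poxn > prosRNAi* tumors, against 43.6% ± 0.110 in WT. The share of *fne* moved little, with 32.2% ± 0.135 (SD, n = 2) in *poxn > prosRNAi, SypRNAi* tumors and 34.3% ± 2.17 in *poxn > prosRNAi* tumors, against 35.2% ± 0.577 in WT. For *elav* and for *Rbp9*, no library of a condition overlapped with those of another. How often the shares within other sets of genes part in this way was not counted.

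**Figure D4:**
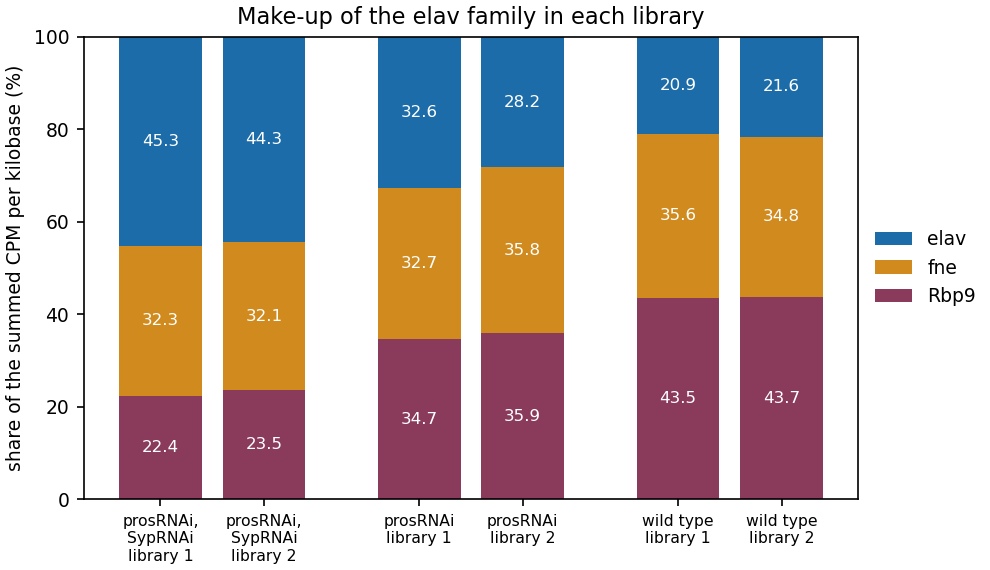
Share of *elav*, *fne* and *Rbp9* in their summed CPM per kilobase of exon, in percent, with a bar for each of the 6 libraries. The *elav* part is 45.3% and 44.3% in *poxn > prosRNAi, SypRNAi* tumors and 32.6% and 28.2% in *poxn > prosRNAi* tumors, against 20.9% and 21.6% in WT, and the *Rbp9* part runs the other way.

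The ratios between members do not depend on the scaling of the libraries. The log2 ratio of *elav* to *Rbp9*, per kilobase, was 1.02 and 0.91 in *poxn > prosRNAi, SypRNAi* tumors and -0.09 and -0.35 in *poxn > prosRNAi* tumors, against -1.06 and -1.02 in WT. On this scale the tumors with *Syp* knockdown were 1.18 above the *poxn > prosRNAi* tumors and 2.00 above WT. The log2 ratio of *elav* to *fne* was 0.49 and 0.46 in *poxn > prosRNAi, SypRNAi* tumors and -0.01 and -0.34 in *poxn > prosRNAi* tumors, against -0.77 and -0.69 in WT. That of *fne* to *Rbp9* was 0.53 and 0.45 in *poxn > prosRNAi, SypRNAi* tumors and -0.08 and -0.01 in *poxn > prosRNAi* tumors, against -0.29 and -0.33 in WT. The 3 ratios are not independent, since the third follows from the other two. An exact two-sided permutation test of 2 against 2 libraries gave p = 0.333 for each of the 9 comparisons of a ratio between conditions, the smallest value it can give, so that none can pass a threshold of 0.05.

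The neuron markers, a list of 15 genes of synapses, channels and transmitter use, place the members against genes of differentiated neurons. Their CPM is a share of the library and does not count neurons. In *poxn > prosRNAi* tumors all 15 were called lower than in WT, with a median log2 fold change of -2.46. In *poxn > prosRNAi, SypRNAi* tumors 13 of 15 were called lower, with a median of -1.81. Of all genes tested, 40.7% and 36.7% were called lower in the same order. In *poxn > prosRNAi* tumors against WT, the medians of the glia (-2.33), muscle (-2.30) and fat body markers (-2.24) were close to that of the neuron markers. A value near the neuron median is there also near those of other tissue. In *poxn > prosRNAi, SypRNAi* tumors these medians were -1.78, 0.69 and -4.85. Between the tumors 5 of 15 were called higher and 0 lower, where 10.9% of all genes were called higher, with a median of 0.53 against 0.0162 for all genes. The 5 were *ChAT* and *VAChT* for acetylcholine, *Gad1* for GABA, *cpx*, the gene of a regulator of vesicle fusion, and *Csp*, that of a synaptic vesicle chaperone. *ChAT* and *VAChT* share exons, so their reads cannot be told apart in full. *VGlut* for glutamate (0.10) and *Vmat* for monoamines (0.07) had values near that of *Rbp9*. Without either library of the *poxn > prosRNAi* tumors 0 of the 15 were called between the tumors, and without library 1 of the *poxn > prosRNAi, SypRNAi* tumors 12 were.

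Of the members, *fne* had log2 fold changes close to the marker median in every comparison, with differences of -0.06 in *poxn > prosRNAi, SypRNAi* tumors and 0.07 in *poxn > prosRNAi* tumors against WT, and 0.0076 between the tumors. *elav* was above the median by 1.14 and 0.61 in the same tumors against WT, and by 0.67 between the tumors, where 13 of 15 markers had lower values. *Rbp9* was below it by 0.86, 0.20 and 0.52, and between the tumors all 15 markers had higher values. Per library, the log2 CPM of *elav* minus the mean of the markers was 0.24 and -0.20 in *poxn > prosRNAi, SypRNAi* tumors and -0.51 and -0.64 in *poxn > prosRNAi* tumors, against -1.03 and -0.999 in WT, without overlap. For *Rbp9* the values were -1.18 and -1.52 in *poxn > prosRNAi, SypRNAi* tumors and -0.83 and -0.70 in *poxn > prosRNAi* tumors, against -0.39 and -0.39 in WT, also without overlap. Those of *fne* overlapped between conditions. How often other genes part in this way was not counted, so the lack of overlap is not read as a trait of *elav* or *Rbp9*.

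**Figure D5:**
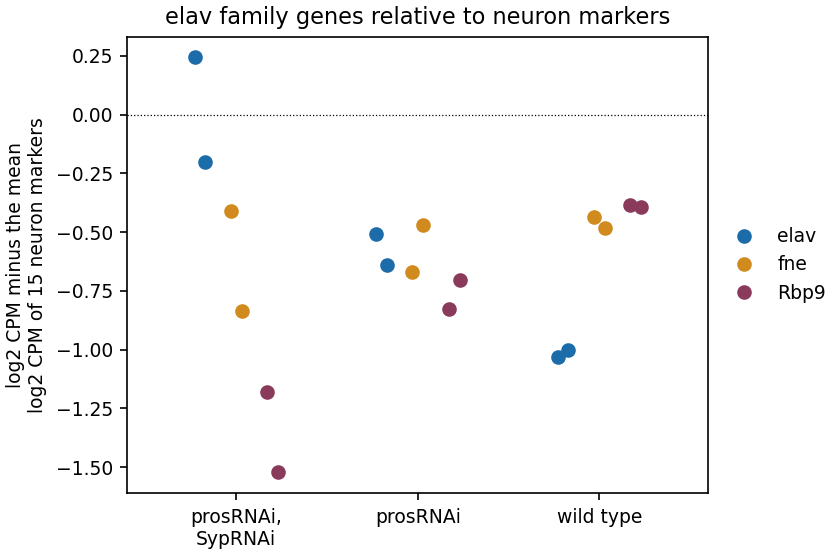
Log2 CPM of *elav*, *fne* and *Rbp9* minus the mean log2 CPM of 15 neuron markers, with a point per library. *elav* is highest in *poxn > prosRNAi, SypRNAi* tumors (0.24 and -0.20) and lowest in WT (-1.03 and -0.999), *Rbp9* runs the other way, and *fne* stays between -0.83 and -0.41.

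The libraries of *poxn > prosRNAi, SypRNAi* tumors differed in other cell types too. For scale, 10.9% of all genes tested between the tumors were called higher and 12.4% lower. The summed neuron markers were at 3289 and 4584 CPM in these tumors and at 2438 and 2860 CPM in *poxn > prosRNAi* tumors, against 14562 and 14341 CPM in WT. So the neuron markers differed between the 2 *poxn > prosRNAi, SypRNAi* libraries, while *elav* was at 213 and 217 CPM in them. The 8 glia markers summed to 1276 and 1636 CPM in *poxn > prosRNAi, SypRNAi* tumors and to 773 and 847 CPM in *poxn > prosRNAi* tumors, against 3057 and 3062 CPM in WT, and 4 of 8 were called higher and 1 lower between the tumors. The 10 muscle markers summed to 1077 and 1792 CPM in *poxn > prosRNAi, SypRNAi* tumors and to 224 and 220 CPM in *poxn > prosRNAi* tumors, against 879 and 1285 CPM in WT, and 9 of 10 were called higher between the tumors. The 6 fat body markers summed to 332 and 242 CPM in *poxn > prosRNAi, SypRNAi* tumors and to 1564 and 990 CPM in *poxn > prosRNAi* tumors, against 6606 and 5696 CPM in WT, and 1 of 6 was called higher and 5 lower between the tumors. The germline markers, of interest since *Rbp9* also acts in the ovary, summed to 22.2 and 20.5 CPM in *poxn > prosRNAi, SypRNAi* tumors and to 19.6 and 23.0 CPM in *poxn > prosRNAi* tumors, against 46.4 and 29.7 CPM in WT. Of the 6, *osk* was at 0 counts in a library of each kind of tumor, against 8.55 and 4.25 CPM in WT. Against WT, 5 of 6 were called lower and 1 higher in *poxn > prosRNAi, SypRNAi* tumors, and 4 lower in *poxn > prosRNAi* tumors. Of all genes, 36.7% and 40.7% were called lower in the same order. Between the tumors 1 of the 6 was called higher and 0 lower. Between the tumors, 2 muscle markers were called without library 1 of the *poxn > prosRNAi* tumors and 1 without library 2, 0 glia markers without either, and 1 fat body marker, lower, without either. The part of these cell types in the differences of the members was not tested.

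A list of 16 other RNA-binding proteins of the nervous system held genes called in both directions, as did the genes at large. Of the 16, 6 were called higher and 9 lower in *poxn > prosRNAi* tumors than in WT (median log2 fold change -0.30), and 5 higher and 8 lower in *poxn > prosRNAi, SypRNAi* tumors (median -0.19). Of all genes tested, 41.9% were called higher and 40.7% lower in *poxn > prosRNAi* tumors, and 39.8% higher and 36.7% lower in *poxn > prosRNAi, SypRNAi* tumors. In *poxn > prosRNAi* tumors the log2 fold change was below that of *elav* (-1.85) in *Rbp6* of the Musashi group (-2.75), in the CELF-type genes *bru2* (-2.50), *bru3* (-2.50) and *bru1* (-2.41), and in *shep* (-1.97), a gene of neuronal remodelling. In contrast, *msi*, the Musashi gene, was 1.42 higher on the log2 scale and *lark* 1.89 higher. Between the tumors 5 of 16 were called higher and 0 lower, with a median of 0.30, where 10.9% of all genes tested were called higher. They were *shep* (log2 fold change 0.84, adjusted p = 0.0155 by edgeR), *bru3* (0.64), *msi* (0.53), *Rbfox1* (0.38) and the RNA editing gene *Adar* (0.32). The value of each was below that of *elav*, and 0 of 16 were called without either library of the *poxn > prosRNAi* tumors.

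*Sxl* and *ssx* encode the fly proteins whose RNA recognition motifs are nearest to those of the elav family, and *Sxl* is the master gene of sex determination. *Sxl* was at 341 and 324 CPM in *poxn > prosRNAi, SypRNAi* tumors and at 256 and 293 CPM in *poxn > prosRNAi* tumors, against 341 and 367 CPM in WT. It was called lower in *poxn > prosRNAi* tumors than in WT (-0.36, adjusted p = 0.0116 by edgeR), and *ssx* was not (0.16, adjusted p = 0.0662). Neither was called in *poxn > prosRNAi, SypRNAi* tumors against WT or between the tumors. The log2 fold changes of both genes lay between -0.36 and 0.28 in the 3 comparisons.

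Of 10 genes known as RNA targets of the family, 6 were called higher and 2 lower in each kind of tumor than in WT, with medians of 0.54 in *poxn > prosRNAi, SypRNAi* and 0.69 in *poxn > prosRNAi* tumors. The number called is close to the share over all genes, of which 39.8% were called higher and 36.7% lower in *poxn > prosRNAi, SypRNAi* tumors, and 41.9% and 40.7% in *poxn > prosRNAi* tumors. The counts are summed over all exons of a gene and say nothing of the splice forms or 3′ UTR lengths that ELAV sets. *Dscam1*, the adhesion receptor gene with many splice forms, was at 127 and 155 CPM in *poxn > prosRNAi, SypRNAi* tumors and at 67.0 and 80.0 CPM in *poxn > prosRNAi* tumors, against 313 and 294 CPM in WT. That is the order of conditions seen for *elav*, and *Dscam1* was called lower than in WT in *poxn > prosRNAi, SypRNAi* tumors (-1.11) and in *poxn > prosRNAi* tumors (-2.04), and higher between the tumors (0.94, adjusted p = 0.0153 by edgeR). *arm*, the β-catenin gene with a neuronal splice form, was called higher between the tumors (0.63), as was *AGO1* (0.40), an Argonaute gene with an ELAV-dependent long 3′ UTR. *emc*, whose mRNA is a target of RBP9, was called lower between the tumors (-0.42). *Nrg* and *ewg*, the best-known splicing targets of ELAV, were not called between the tumors (-0.26 and 0.11), nor were *brat*, *pum* and *nej* (0.34, -0.03 and -0.14). Without either library of the *poxn > prosRNAi* tumors, 0 of the 10 were called between the tumors.

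*bam*, a germline differentiation gene regulated by RBP9 in the ovary, had the largest log2 fold changes against WT of the target list, 7.21 in *poxn > prosRNAi, SypRNAi* and 6.27 in *poxn > prosRNAi* tumors. It was at 41.6 and 40.1 CPM in *poxn > prosRNAi, SypRNAi* tumors and at 20.8 and 21.9 CPM in *poxn > prosRNAi* tumors, against 0.303 and 0.219 CPM, or 35 and 29 counts, in WT. The difference between the tumors was 0.94 on the log2 scale (adjusted p = 0.00469 by edgeR). Of its exon length, 11.8% overlaps *CG11854*, whose reads there also count for *bam*.

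The members did not resemble each other most. Profiles of log2 CPM over the 6 libraries, each centred on its own mean, were compared by the root mean square (RMS) difference among 11253 genes with a mean count of at least 100. From *Rbp9*, *fne* was at rank 700 with an RMS difference of 0.333, and *elav* at rank 2807 with 0.823. From *elav*, *fne* was at rank 1693 with 0.50. The nearest gene to *elav* was *mlt*, related to a tubulin-folding cofactor (RMS difference 0.056), followed by *EndoU*, *CG3726*, *CG5928* and *CG11658*. *mlt* averaged 51.1 CPM in *poxn > prosRNAi, SypRNAi* tumors and 22.1 CPM in *poxn > prosRNAi* tumors, against 74.7 CPM in WT. The nearest to *fne* were *CG11000* (0.032), *CG3257*, *CG15270*, *Rab26*, the gene of a small GTPase of secretory vesicles, and *CG13248*. The nearest to *Rbp9* were *Blimp-1*, the gene of a zinc finger repressor (0.025), *CG3328*, *CG6123*, *SerT*, the serotonin transporter gene, and *CG32547*. *SerT* averaged 4.21 CPM in *poxn > prosRNAi, SypRNAi* tumors and 4.21 CPM in *poxn > prosRNAi* tumors, against 28.8 CPM in WT, the same flat pattern between the tumors as *Rbp9*. With 6 libraries in 3 conditions, such likeness mostly follows the means of the conditions.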

How the data were processed

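Total RNA of VNCs was depleted of ribosomal RNA with Ribo-Zero and made into stranded libraries, read as pairs, although a label also speaks of polyA RNA. The authors mapped the reads with Subread and deposited raw counts per gene, made per the file header with featureCounts 1.5.0 on exons of FlyBase release 6.19, without the strand option and counting a read for every gene it overlaps. The labels list genome build dm3, but the positions in the table are those of Release 6. Of its symbols, 14392 (82.3%) were matched in the BDGP6.54 annotation and 99.3% of these had the same span. The annotation was used for coding and UTR lengths.

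Counts were tested in R 4.3.3 with edgeR 4.0.16 (TMM, filterByExpr with a minimum count of 10, quasi-likelihood test on the 4 libraries of a comparison, prior count 2, two-sided, Benjamini-Hochberg over all genes tested, called at an adjusted p under 0.05). The log2 of CPM was taken after adding 0.5, and plots were drawn with matplotlib. The WT libraries serve in 2 comparisons, and so do those of each tumor. Alternatives were DESeq2 1.42.0 (size factors, Wald test), library totals alone, TMM without ribosomal RNA and mitochondrial genes, other filters, a fit of all 6 libraries, a block for the replicate number, calls at 0.001 as in the study's methods, shares by counts without division by exon length, and leaving out each library. The edgeR fit was tested on simulated counts with 1 fixed dispersion, in which a small part of the genes changed, up or down at random. In the comparisons with WT most genes were called, so the simulation does not check the scaling or the test in that setting. The 2 libraries of a condition differed by more than sampling noise.

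The members, the 11 gene lists and the threshold were chosen with earlier results of these data known. The genes named are the members, genes of the lists and, for each member, the 5 genes nearest in profile. *arg*, *Ts* and *CG11854* are named for their overlap. No sequences are printed, and single-cell data were not analysed here.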

Additional observations from a re-analysis of the deposited data

How the results depend on the processing

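All comparisons of the members with WT kept their direction and their call under each alternative. Library totals alone shifted the median of all genes by -0.28 in *poxn > prosRNAi* and -0.14 in *poxn > prosRNAi, SypRNAi* tumors against WT and by 0.13 between the tumors, where 71.8% of the calls were then higher, against 46.7% with TMM, and 12 of the 15 neuron markers, against 5. At a threshold of 0.001, edgeR called 7735 genes in *poxn > prosRNAi* tumors against WT, 5286 in *poxn > prosRNAi, SypRNAi* tumors against WT and 0 between the tumors, where 5435 had an unadjusted p under 0.05 and DESeq2 called 2005 at the same threshold. *elav* was then not called between the tumors by edgeR (1.20, adjusted p = 0.00398). By DESeq2's Wald test, the tool of the study's methods, it was below 0.001 (1.20, adjusted p = 1.00e-43). Between the tumors, *fne* was called with library totals alone (0.67), no filter (0.54), DESeq2's Wald test (0.54), at least 10 counts in every library (0.54), a fit of all 6 libraries (0.53) and the replicate block (0.55), with adjusted p from 0.00299 to 0.0468. *Rbp9* turned to -0.00078 with TMM without ribosomal RNA and mitochondrial genes. The causes were not tested.

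Leaving out each library in turn, the number of genes called between the tumors ran from 6 (without *poxn > prosRNAi* library 2) to 2836, with 235 without *poxn > prosRNAi* library 1 and 2108 without *poxn > prosRNAi, SypRNAi* library 2. A group left with 1 library is assumed to vary like the other. *elav* ran from 1.16 to 1.24, *fne* from 0.34 to 0.76 and *Rbp9* from -0.15 to 0.19, with -0.15 without *poxn > prosRNAi* library 1 and -0.06 without *poxn > prosRNAi, SypRNAi* library 2. Of the neuron markers, 0 were called without either *poxn > prosRNAi* library and 12 without *poxn > prosRNAi, SypRNAi* library 1. The libraries share only a number. Same-numbered deviations correlated at -0.24 and -0.06 against WT (*poxn > prosRNAi* and *poxn > prosRNAi, SypRNAi* tumors) and at 0.33 between the tumors. The block gave 11274, 10353 and 3466 genes called in these comparisons and, the *fne* call apart, changed no call of a member.

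By counts without division by exon length, the share of *elav* was 49.4% in *poxn > prosRNAi, SypRNAi* tumors and 34.8% in *poxn > prosRNAi* tumors, against 24.9% in WT, and that of *Rbp9* 19.0% and 30.4%, against 38.4% in WT.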

Other observations

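Of 6 factors of newborn neurons, 3 were called higher and 2 lower in each kind of tumor than in WT, where 39.8% of all genes were called higher and 36.7% lower in *poxn > prosRNAi, SypRNAi* tumors, and 41.9% and 40.7% in *poxn > prosRNAi* tumors. Between the tumors 4 of the 6 were called higher (median 0.54 on the log2 scale), where 10.9% of all genes were. *nerfin-1*, a zinc finger gene needed to keep new neurons from turning back into NBs, was at 56.6 and 58.5 CPM in *poxn > prosRNAi, SypRNAi* tumors and at 22.7 and 14.7 CPM in *poxn > prosRNAi* tumors, against 0.927 and 0.923 CPM in WT. Between the tumors it was 1.62 higher on the log2 scale (adjusted p = 0.0126 by edgeR), *Lim1* 1.27 higher, *scrt* 0.63 and *dati* 0.45, while *fru* had -0.19 and *hth* 0.24. *nerfin-1* and *elav* were thus both called higher with *Syp* knockdown, but against WT *nerfin-1* was higher and *elav* lower. Without *poxn > prosRNAi* library 2, 0 of the 6 were called between the tumors.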
